A study of Drosophila melanogaster with 36 samples.

Results

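The small heat shock proteins of Drosophila were followed in whole flies that expressed either normal fly SOD1 or a human SOD1 mutant linked to amyotrophic lateral sclerosis (ALS). Of 7 genes sought by current symbol or synonym (Hsp22, Hsp23, Hsp26, Hsp27, Hsp67Ba, Hsp67Bc and l(2)efl), 4 had a probe set in the annotation used here, together 7 of 18769 fly probe sets. Hsp22 had 2 probe sets, Hsp26 and Hsp27 had 1 each, and l(2)efl had 3. The other 3 genes were not analysed here. Both Hsp22 probe sets also carry the symbol CG4456, a neighbouring gene once called Hsp67Bb, so signal from the pair cannot be told apart by annotation.

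RNA came from whole adult males, frozen in pools of 40, and 36 arrays fell into 12 groups of 3 independent pools. The D42-Gal4 driver is active in motoneurons (MN), M1B-Gal4 in glia, and D42-Gal4 with M1B-Gal4 in MN+glia. Each driver was crossed to UAS-dSOD1 (wild-type Drosophila SOD1, the control) or to UAS-hSOD1 G85R (the ALS-linked human allele, called G85R), and males were aged to 5 days (5d) or 45 days (45d). The controls thus carried a driver and a SOD1 transgene as well, and no group without a transgene was analysed. The driver limits the transgene to few cells of the fly, whereas the RNA was from the whole body.

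Small heat shock proteins share an alpha-crystallin domain. They bind proteins that begin to unfold and hold them, without using ATP, until Hsp70 and its partners can refold them. In Drosophila most of them lie in a cluster on chromosome arm 3L, where the order along the chromosome is Hsp67Bc, CG4456, Hsp22, CG4461, Hsp26, Hsp67Ba, Hsp23 and Hsp27 (names and order from RefSeq, Release 6), whereas l(2)efl lies apart on 2R. Several of the genes are known to be induced by heat through the factor Hsf and to be switched on in old flies without heat, and extra copies of some of them are known to lengthen fly life.

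The deposited values are log2 signals, on which the median over all fly probe sets and arrays was 6.48 and the 5th and 95th percentiles were 3.52 and 10.95. Array medians ran from 6.38 to 6.53. A single array stood apart. On MN+glia G85R 5d replicate 2 the 3′ actin probe set exceeded the 5′ one by 5.72 on the log2 scale against 2.39 to 3.25 on the other 35 arrays, a mark of degraded RNA, and the control sets for GAPDH and eIF4a stood apart in the same way. All 36 arrays were kept, and results that rest on this array are given without it too. The study's methods leave out an array for degradation but name its group as glia G85R at 5d, where no array carried this mark. Among markers of male tissue, the accessory gland genes SP, Acp26Aa and Acp36DE had medians over the 36 arrays from 11.60 to 12.76. The testis genes varied, with medians of 12.39 for Mst84Da, 7.55 for dj and 4.69 for bam. Of the female yolk protein genes, Yp1 (median 4.44, up to 7.37) and Yp2 (4.70) lay mostly below the median of all probe sets and Yp3 (6.72, up to 8.01) around it.

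Differences are given as log2 values with their standard errors (SE) from a limma fit of 12 group means, and a probe set passed where its Benjamini-Hochberg adjusted p was at most 0.05. Against dSOD1, G85R gave 7 calls in 42 tests of the 7 probe sets, all of them higher. Without the degraded array there were 9, also all higher, as 3 of 7 then passed at 45d with MN and with MN+glia. In that fit the shares of all probe sets at 45d were not counted. Those given below for 45d are from all 36 arrays. With MN, 1 of 7 probe sets passed at 5d, where 7.99% of all fly probe sets passed and 4.35% were higher, and 2 of 7 passed at 45d, against 10.0% and 5.18%. With glia, 1 of 7 passed at 5d, against 5.63% of all and 2.70% higher, and 0 of 7 at 45d, against 9.97% and 4.89%. With MN+glia, 1 of 7 passed at 5d, against 13.9% of all and 6.05% higher (6.51% and 2.93% without the degraded array), and 2 of 7 at 45d, against 7.03% and 3.02%. The median of the members ran from 0.04 to 0.21 in the 6 comparisons, and that of all probe sets from -0.01 to 0.02.

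Age moved more of them. At 45d against 5d, 33 of 42 tests passed, 22 higher and 11 lower, but ageing changed a large share of all probe sets. Without the degraded array 35 passed, 22 higher and 13 lower, and the added falls were in glia dSOD1 and MN G85R. For those groups the shares of all probe sets in that fit were not counted. In MN dSOD1 controls 4 of 7 rose and 3 fell, where 45.3% of all probe sets passed (26.1% higher and 19.2% lower). In glia dSOD1 4 rose and 1 fell (40.5% of all, 22.3% higher and 18.1% lower), and in MN+glia dSOD1 4 rose and 3 fell (38.3%, 20.6% higher and 17.6% lower). In G85R flies 3 rose and 2 fell with MN (39.2%, 21.8% higher and 17.4% lower), and 4 rose and 1 fell with glia (34.2%, 19.3% higher and 14.9% lower). With MN+glia 3 rose and 1 fell (31.7%, 16.5% higher and 15.2% lower, or 31.0%, 16.5% and 14.5% without the degraded array). The median of the members ran from 0.15 (MN+glia G85R, or 0.09 without the degraded array) to 0.45 over the 6 comparisons, and that of all probe sets from -0.01 to 0.03. Of the 7 probe sets 3 are of l(2)efl, so the counts and medians here and above are of probe sets, not of genes. With only the brightest probe set of each of the 4 genes, 18 tests passed for age over the 6 comparisons, 11 higher and 7 lower. For Hsp22 that set was 1629061_s_at, which rose, so the falls of 1630487_s_at are not among them. The share of all probe sets in that fit was not counted. The probe sets differed in direction: all called changes of l(2)efl and of 1 Hsp22 probe set were rises, and all those of Hsp26, Hsp27 and the other Hsp22 probe set were falls. Whether such a change reflects fewer cells or less RNA per cell cannot be told apart in whole flies.

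**Figure D1:**
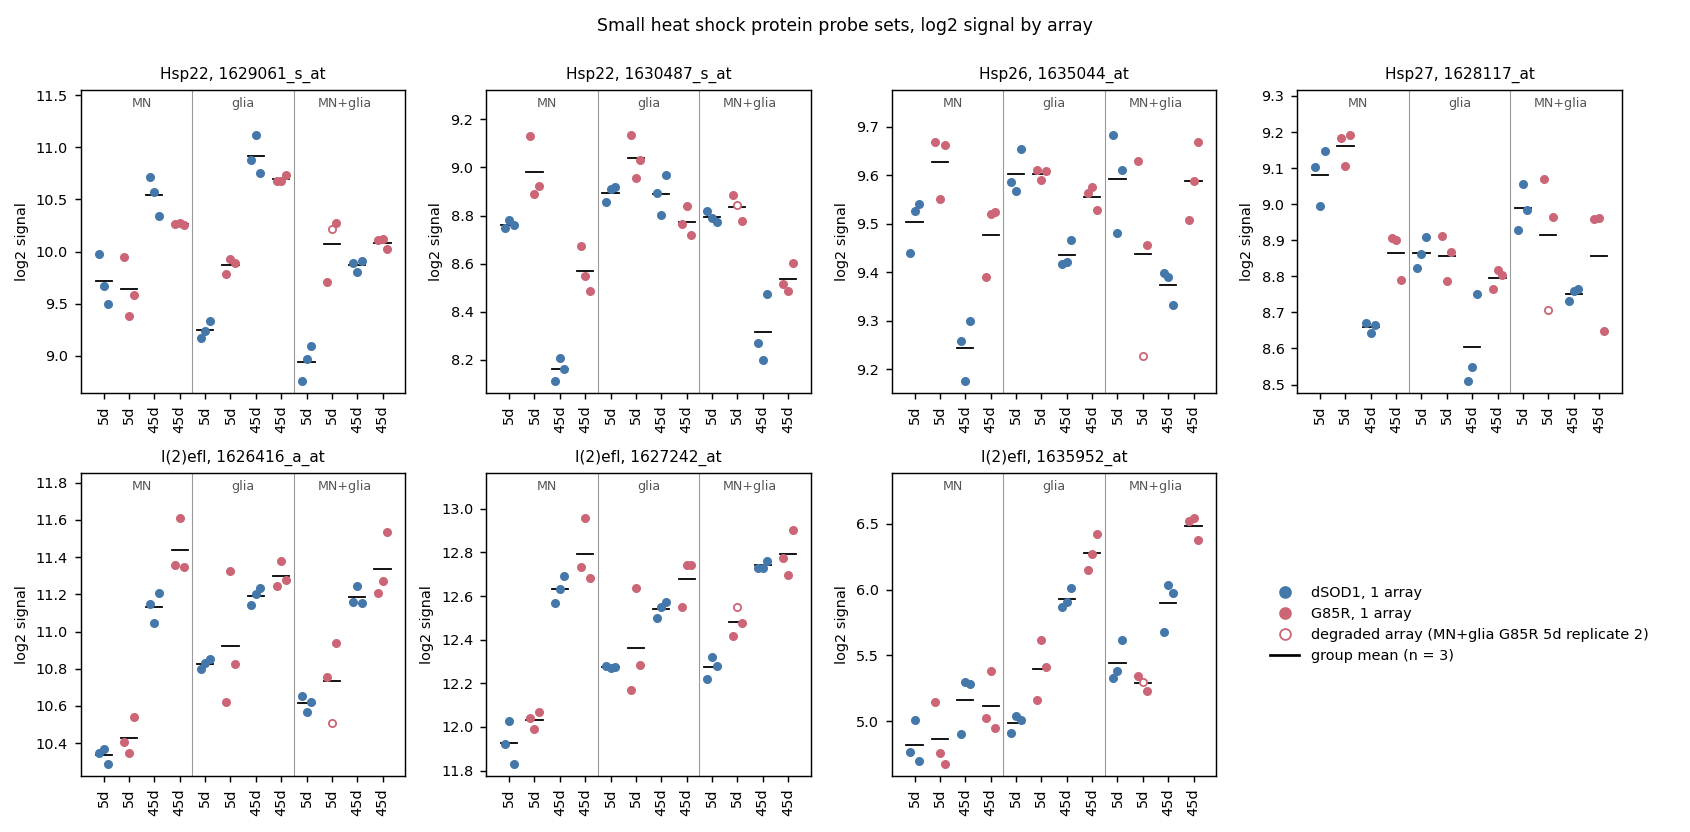
Log2 signal of each small heat shock protein probe set (1 panel each) on 36 arrays in 12 groups; points are arrays, coloured by transgene, bars are group means (n = 3), and the open point is the degraded array. The vertical axes differ between panels and do not start at 0. In Hsp22 probe set 1629061_s_at the lowest group mean is 8.94 (MN+glia dSOD1 5d) and the highest 10.92 (glia dSOD1 45d).

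Hsp22 encodes the chaperone of the mitochondrial matrix. Its probe set 1629061_s_at had the widest span of group means of the 7, 1.98, from 8.94 ± 0.17 in MN+glia dSOD1 5d to 10.92 ± 0.19 in glia dSOD1 45d (SD, n = 3 each). With MN+glia at 5d it read 8.76, 8.97 and 9.10 in the dSOD1 arrays and 9.71, 10.22 and 10.28 in the G85R arrays. All G85R arrays lay above all dSOD1 arrays. The difference was 1.13 (SE 0.13, 2.18-fold, adjusted p = 3.13e-07), and without the degraded array, which read 10.22, it was 1.05 (SE 0.15, adjusted p = 9.13e-06). With glia at 5d the dSOD1 arrays read 9.17, 9.24 and 9.33 and the G85R arrays 9.78, 9.93 and 9.89, again with no overlap, a difference of 0.62 (SE 0.13, 1.54-fold, adjusted p = 0.0024). With MN at 5d the dSOD1 arrays read 9.98, 9.67 and 9.50 and the G85R arrays 9.95, 9.38 and 9.58. These groups overlapped and differed by -0.08 (95% confidence interval, CI, -0.35 to 0.19).

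At 45d the same Hsp22 probe set gave no call for G85R. With MN, the dSOD1 arrays read 10.71, 10.57 and 10.34 and the G85R arrays 10.27, 10.28 and 10.26. G85R was the lower group here without overlap, but the difference of -0.27 did not pass (CI -0.54 to -0.01, adjusted p = 0.222). It passed only under array weights, with an adjusted p of 0.0479. With glia the dSOD1 arrays read 10.88, 11.12 and 10.75 and the G85R arrays 10.67, 10.68 and 10.73, a difference of -0.22 (CI -0.49 to 0.04). With MN+glia the dSOD1 arrays read 9.89, 9.81 and 9.91 and the G85R arrays 10.11, 10.12 and 10.02, a difference of 0.21 (CI -0.06 to 0.48). No arrays overlapped in these pairs of groups either, and neither difference passed.

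**Figure D2:**
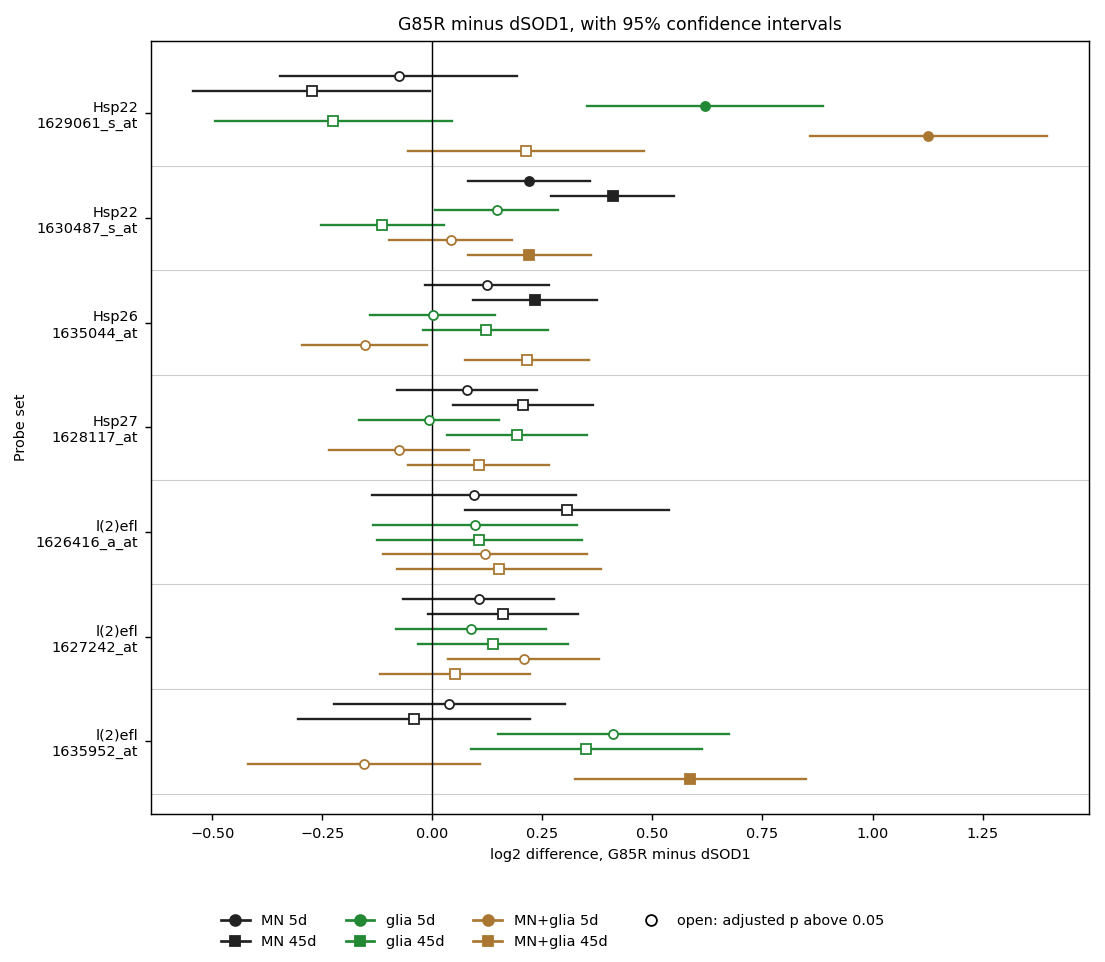
G85R minus dSOD1 on the log2 scale for each probe set (vertical axis) in 6 comparisons; colour gives the driver, circles 5d, squares 45d, lines are 95% confidence intervals from the fit of 36 arrays, and open symbols did not pass. The Hsp22 probe set 1629061_s_at at 5d lies farthest from 0, at 1.13 with MN+glia and 0.62 with glia.

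With age this Hsp22 probe set rose in 5 of 6 comparisons. The rise was 1.67 in glia dSOD1 (SE 0.13, 3.18-fold, adjusted p = 1.26e-11), 0.93 in MN+glia dSOD1, 0.83 in MN dSOD1, 0.83 in glia G85R and 0.63 in MN G85R (adjusted p from 1.26e-11 to 0.000229), and in each of the 5 all 45d arrays lay above all 5d arrays. In MN+glia G85R, whose 45d arrays read within the range of the 5d ones, the difference was 0.02 (CI -0.25 to 0.28), or 0.09 without the degraded array. The G85R difference therefore changed with age by -0.84 with glia (SE 0.19, adjusted p = 0.0108) and by -0.91 with MN+glia (SE 0.19, adjusted p = 0.00484; -0.84, adjusted p = 0.0199, without the degraded array). These tests use the same arrays as those of each age. In the fit on the 12 arrays of the MN+glia comparison alone the adjusted p was 0.0526.

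The other Hsp22 probe set, 1630487_s_at, went the other way with age. It fell by 0.60 in MN dSOD1 (adjusted p = 1.39e-08), by 0.48 in MN+glia dSOD1 (adjusted p = 8.65e-07), by 0.41 in MN G85R, by 0.30 in MN+glia G85R and by 0.27 in glia G85R (SE 0.07 each), and all 45d arrays lay below all 5d arrays in each. In glia dSOD1 the 45d arrays read 8.89, 8.80 and 8.97 and the 5d arrays 8.86, 8.91 and 8.92, a difference of -0.01 (CI -0.15 to 0.13). The 2 Hsp22 probe sets thus changed in opposite directions in 4 of the 6 comparisons, where each passed, and over the 12 group means their Pearson r was -0.28. Both sets are annotated to Hsp22 and CG4456, and which transcript each set reads was not tested.

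G85R went with higher signal of 1630487_s_at in 3 comparisons. With MN at 45d the dSOD1 arrays read 8.11, 8.21 and 8.16 and the G85R arrays 8.67, 8.55 and 8.49. The groups did not overlap, and the difference of 0.41 (SE 0.07, 1.33-fold, adjusted p = 8.21e-05) passed in all 9 alternatives that tested this probe set and with each array left out. With MN at 5d the dSOD1 arrays read 8.75, 8.78 and 8.76 and the G85R arrays 9.13, 8.89 and 8.92, a difference of 0.22 (adjusted p = 0.0429). With MN+glia at 45d the dSOD1 arrays read 8.27, 8.20 and 8.48 and the G85R arrays 8.52, 8.48 and 8.60, also a difference of 0.22 (adjusted p = 0.0448). The last pair of calls lay near the threshold. The call with MN at 5d was lost without any of the MN dSOD1 5d arrays, MN G85R 5d replicate 1, glia dSOD1 45d replicate 1 or glia G85R 45d replicate 1, and also after quantile or cyclic loess normalization, with array weights and in the fit on the arrays of 1 comparison alone (differences from 0.14 to 0.26 and adjusted p up to 0.339 over all alternatives), and the call with MN+glia at 45d was lost without any 1 of 18 arrays and in the fit on its own arrays alone (0.16 to 0.30, adjusted p up to 0.263). With glia at 45d, where the arrays of the groups overlapped, the difference was -0.11.

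Hsp26 encodes a cytosolic member. It varied least, with group means from 9.24 to 9.63 and a span of 0.38. With MN at 45d the dSOD1 arrays read 9.26, 9.18 and 9.30 and the G85R arrays 9.39, 9.52 and 9.52. The groups did not overlap and differed by 0.23 (SE 0.07, 1.18-fold, adjusted p = 0.0271). The call was lost without MN dSOD1 45d replicate 1 or 2 or MN G85R 45d replicate 2 or 3, after quantile normalization and in the fit on its own arrays alone (0.20 to 0.29 and adjusted p up to 0.132 over all alternatives). With MN+glia at 45d the dSOD1 arrays read 9.40, 9.39 and 9.33 and the G85R arrays 9.51, 9.59 and 9.67. The difference of 0.21 missed the threshold (adjusted p = 0.0575). It passed in 7 of 10 alternative fits, among them that without the degraded array (adjusted p = 0.0143), and with 3 of 36 single arrays left out. In the other 4 comparisons the difference lay between -0.15 and 0.12 and did not pass.

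With age Hsp26 fell in MN dSOD1, by 0.26 (adjusted p = 0.00275), and in MN+glia dSOD1, by 0.22 (adjusted p = 0.0122). The latter was lost without MN+glia dSOD1 5d replicate 1 or MN+glia dSOD1 45d replicate 3 (adjusted p up to 0.0835). In glia dSOD1 it differed by -0.17 (adjusted p = 0.0534) and in MN G85R by -0.15 (adjusted p = 0.092), and without the degraded array both passed (adjusted p = 0.0182 and 0.0376). The former passed in 8 of 10 alternative fits and the latter in 3 of 10, that fit included. In glia G85R it differed by -0.05, and in MN+glia G85R the difference had the other sign, 0.15 (adjusted p = 0.1; 0.05 without the degraded array), and neither passed. In MN+glia the G85R difference changed with age by 0.37 (SE 0.10, adjusted p = 0.0308). That value rests on the degraded array, which read 9.23 against 9.63 and 9.46 in its group, and without it the change was 0.26 and did not pass (adjusted p = 0.134). It was likewise lost without MN+glia dSOD1 5d replicate 1 or 3, MN+glia dSOD1 45d replicate 1 or 3, or MN+glia G85R 45d replicate 2 or 3, with array weights and in the fit on its own arrays alone (0.23 to 0.46 over all alternatives).

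Hsp27, a chaperone found in the nucleus, had group means from 8.60 to 9.16. No comparison of G85R with dSOD1 passed. With MN at 45d the dSOD1 arrays read 8.67, 8.64 and 8.67 and the G85R arrays 8.91, 8.90 and 8.79. These arrays did not overlap, and the difference of 0.21 missed the threshold (adjusted p = 0.0974). It passed in 3 of 10 alternative fits, among them that without the degraded array (adjusted p = 0.044). With glia at 45d the dSOD1 arrays read 8.51, 8.55 and 8.75 and the G85R arrays 8.76, 8.82 and 8.80, a difference of 0.19 (adjusted p = 0.134). The remaining 4 differences lay between -0.08 and 0.10.

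With age Hsp27 fell in all 3 control groups, by 0.42 in MN dSOD1 (SE 0.08, adjusted p = 4.14e-05), by 0.26 in glia dSOD1 (adjusted p = 0.00719) and by 0.24 in MN+glia dSOD1 (adjusted p = 0.0151). Each of these pairs of groups was free of overlap. The call in glia dSOD1 was lost without glia dSOD1 45d replicate 1 (adjusted p = 0.052) and that in MN+glia dSOD1 without MN+glia dSOD1 5d replicate 2 (adjusted p = 0.0734). In G85R flies it fell with MN, by 0.30 (adjusted p = 0.00264), and differed by -0.06 with glia and -0.06 with MN+glia (-0.16 without the degraded array), where the arrays overlapped. The change of the G85R difference with age, which tests whether G85R and control flies differ in this, did not pass with any driver (0.13, 0.20 and 0.18).

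**Figure D3:**
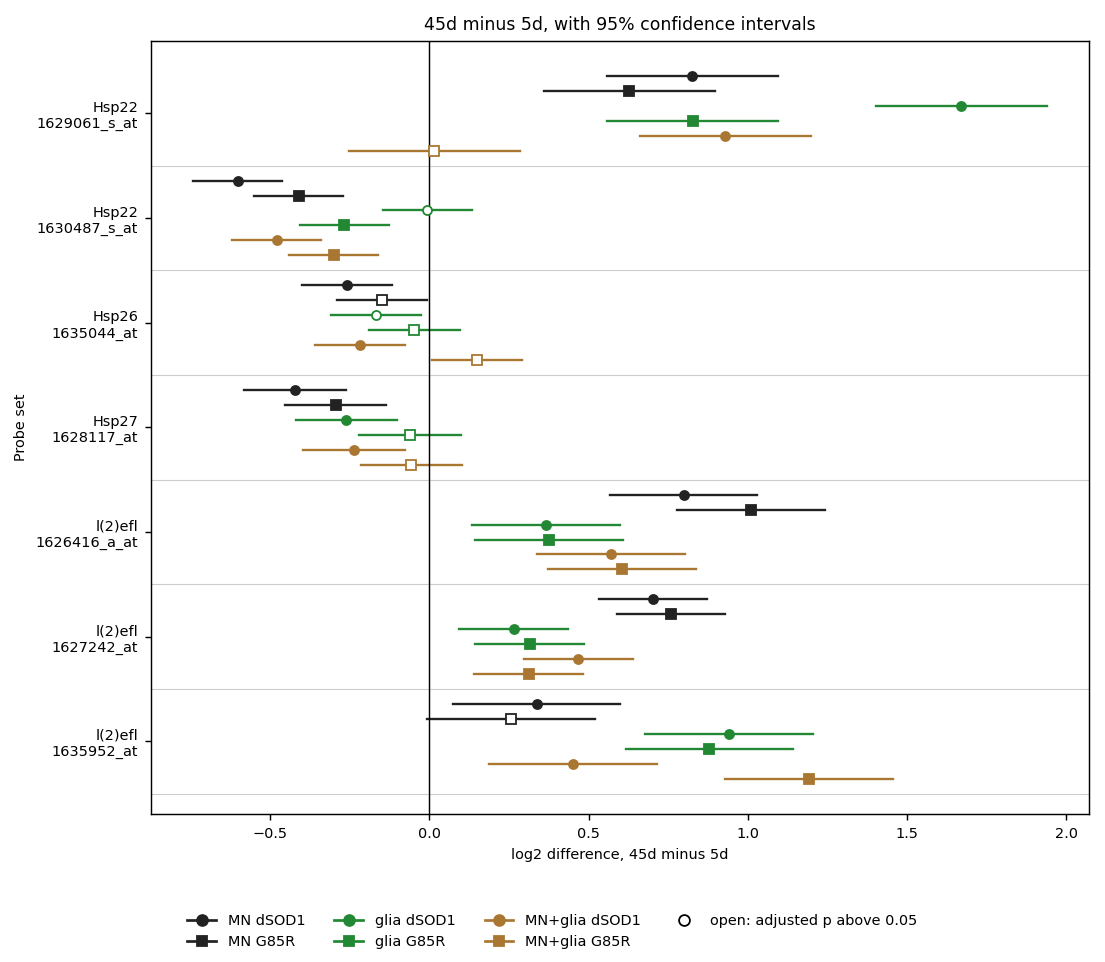
45d minus 5d on the log2 scale for each probe set (vertical axis) in 6 comparisons; colour gives the driver, circles dSOD1, squares G85R, lines are 95% confidence intervals, and open symbols did not pass. The filled symbols of the 3 l(2)efl probe sets and Hsp22 1629061_s_at lie to the right of 0 and those of Hsp22 1630487_s_at, Hsp26 and Hsp27 to the left, while Hsp22 1629061_s_at in MN+glia G85R (0.02) lies across 0.

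The gene l(2)efl, also known as CryAB in flies, is a relative of vertebrate alpha-crystallins. Its bright probe sets, 1626416_a_at (group means 10.34 to 11.44) and 1627242_at (11.93 to 12.79), rose with age in all 6 comparisons. The largest rise of 1626416_a_at was in MN G85R, where the 5d arrays read 10.41, 10.35 and 10.54 and the 45d arrays 11.36, 11.61 and 11.35, a difference of 1.01 (SE 0.11, 2.01-fold, adjusted p = 1.7e-08). In MN dSOD1 the 5d arrays read 10.35, 10.37 and 10.29 and the 45d arrays 11.15, 11.05 and 11.21, a rise of 0.80 (adjusted p = 8.19e-07). No arrays overlapped in either. The other 4 rises lay between 0.37 and 0.60. For 1627242_at the rises were 0.76 in MN G85R, 0.70 in MN dSOD1 and 0.26 to 0.47 in the other 4.

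Glia G85R 5d replicate 2 stood above the other 2 arrays of its group on all 3 probe sets, at 11.33 against 10.62 and 10.83, 12.64 against 12.17 and 12.28, and 5.62 against 5.16 and 5.41, and it made the glia G85R ages overlap on both bright sets. The glia G85R rise of 1626416_a_at, 0.38 (adjusted p = 0.0101), was 0.58 without this array, and was lost without replicate 1 or 3 of that group (adjusted p up to 0.147). That of 1627242_at, 0.31 (adjusted p = 0.00353), was 0.45 without it, and was lost without replicate 1 (adjusted p = 0.0575). Both were lost in the fit on the arrays of that comparison alone.

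The third l(2)efl probe set, 1635952_at, lay below the median of all probe sets, with group means from 4.82 to 6.48. It rose with age in 5 of 6 comparisons. In MN+glia G85R the 5d arrays read 5.34, 5.30 and 5.23 and the 45d arrays 6.52, 6.55 and 6.38, a rise of 1.19 (SE 0.13, 2.29-fold, adjusted p = 1.68e-08; 1.20 without the degraded array). In glia the rise was 0.94 in dSOD1 and 0.88 in G85R, and in MN+glia dSOD1 it was 0.45 (adjusted p = 0.00536). The rise in MN dSOD1, 0.34 (adjusted p = 0.0327), had overlapping arrays and was lost without MN dSOD1 5d replicate 1 or 3 or MN dSOD1 45d replicate 2 or 3 and in the fit on its own arrays alone (adjusted p up to 0.146). In MN G85R the difference was 0.26 (adjusted p = 0.121).

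This probe set gave the only l(2)efl call for G85R. With MN+glia at 45d the dSOD1 arrays read 5.68, 6.03 and 5.97 and the G85R arrays 6.52, 6.55 and 6.38, without overlap, a difference of 0.59 (SE 0.13, 1.50-fold, adjusted p = 0.00279). With glia it differed by 0.41 at 5d (adjusted p = 0.0551) and by 0.35 at 45d (adjusted p = 0.0877). The former passed in 4 of 8 alternative fits that tested this probe set and the latter in 2 of 8. With MN+glia the G85R difference changed with age by 0.74 (SE 0.18, adjusted p = 0.0203; 0.75, adjusted p = 0.0479, without the degraded array), a call lost without MN+glia dSOD1 5d replicate 3 or MN+glia dSOD1 45d replicate 1 (adjusted p up to 0.0707). The bright sets of the same gene did not show it: they changed by 0.03 and -0.16, and their G85R differences with MN+glia at 45d were 0.15 and 0.05, none of which passed. With MN at 45d the bright set 1626416_a_at was higher with G85R by 0.31, without overlap. That difference missed the threshold (adjusted p = 0.0899) and passed in 2 of 9 alternative fits that tested the set.

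Over the 3 tests of a change with age, 0 of 7 probe sets passed with MN (1.49% of all probe sets), 1 of 7 with glia (1.74%) and 3 of 7 with MN+glia (3.86%). Without the degraded array the last count was 2 of 7, against 1.46%. The fourth kind of test compared the G85R difference between drivers. At 5d, 0 of 7 passed for glia against MN (0.618%), 1 of 7 for MN+glia against MN (2.59%, or 1.02% without the degraded array) and 0 of 7 for MN+glia against glia (0.218%, or 0.144%). At 45d, 1 of 7 passed for glia against MN (1.42%), 0 of 7 for MN+glia against MN (1.36%) and 0 of 7 for MN+glia against glia (0.453%).

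Both calls between drivers were of the Hsp22 probe sets, which also carry CG4456. For 1629061_s_at at 5d the G85R difference was larger with MN+glia than with MN by 1.20 (SE 0.19, adjusted p = 0.000316; 1.13, adjusted p = 0.0018, without the degraded array), and in the fit on the 12 arrays of that comparison alone the adjusted p was 0.0909. Glia exceeded MN by 0.70 and MN+glia exceeded glia by 0.51, and neither passed (adjusted p = 0.0796 and 0.356). For 1630487_s_at at 45d the G85R difference was smaller with glia than with MN, by -0.52 (SE 0.10, adjusted p = 0.00155). Comparisons between drivers share arrays, and flies of different drivers also differ in the driver insertion itself. Signal of the neuronal gene elav differed too, with group means of 6.39 to 6.63 with glia and 8.24 to 8.58 with MN or MN+glia. Its bearing on these comparisons was not tested.

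Relatives with an alpha-crystallin domain were read from a list of 5 genes, of which 3 had a probe set. CG4461, which lies between Hsp22 and Hsp26 in the cluster, was higher with G85R in 5 of 6 comparisons. With MN+glia at 45d the dSOD1 arrays read 10.61, 10.53 and 10.48 and the G85R arrays 10.97, 11.09 and 10.90, a difference of 0.45 (SE 0.08, adjusted p = 0.000347). The other calls were 0.51 with MN+glia at 5d (0.56 without the degraded array), 0.41 with glia at 5d, 0.38 with glia at 45d and 0.28 with MN at 45d, and with MN at 5d the difference was 0.20 and did not pass. CG4461 also fell with age in all 6 comparisons, by 0.78 to 1.03. CG7409 fell in all 6, by 1.82 in the smallest case, and CG13133 fell in 3 of 6. With G85R neither passed with all arrays. Without the degraded array CG7409 passed as higher with glia (0.21, adjusted p = 0.0119) and MN+glia (0.27, adjusted p = 0.00384) at 5d, and CG13133 with MN+glia at 5d (0.37, adjusted p = 0.00847), MN at 45d (0.28, adjusted p = 0.0198) and MN+glia at 45d (0.26, adjusted p = 0.0339). The list's medians with age ran from -1.03 to -0.78, while those of all probe sets ran from -0.01 to 0.03.

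**Figure D4:**
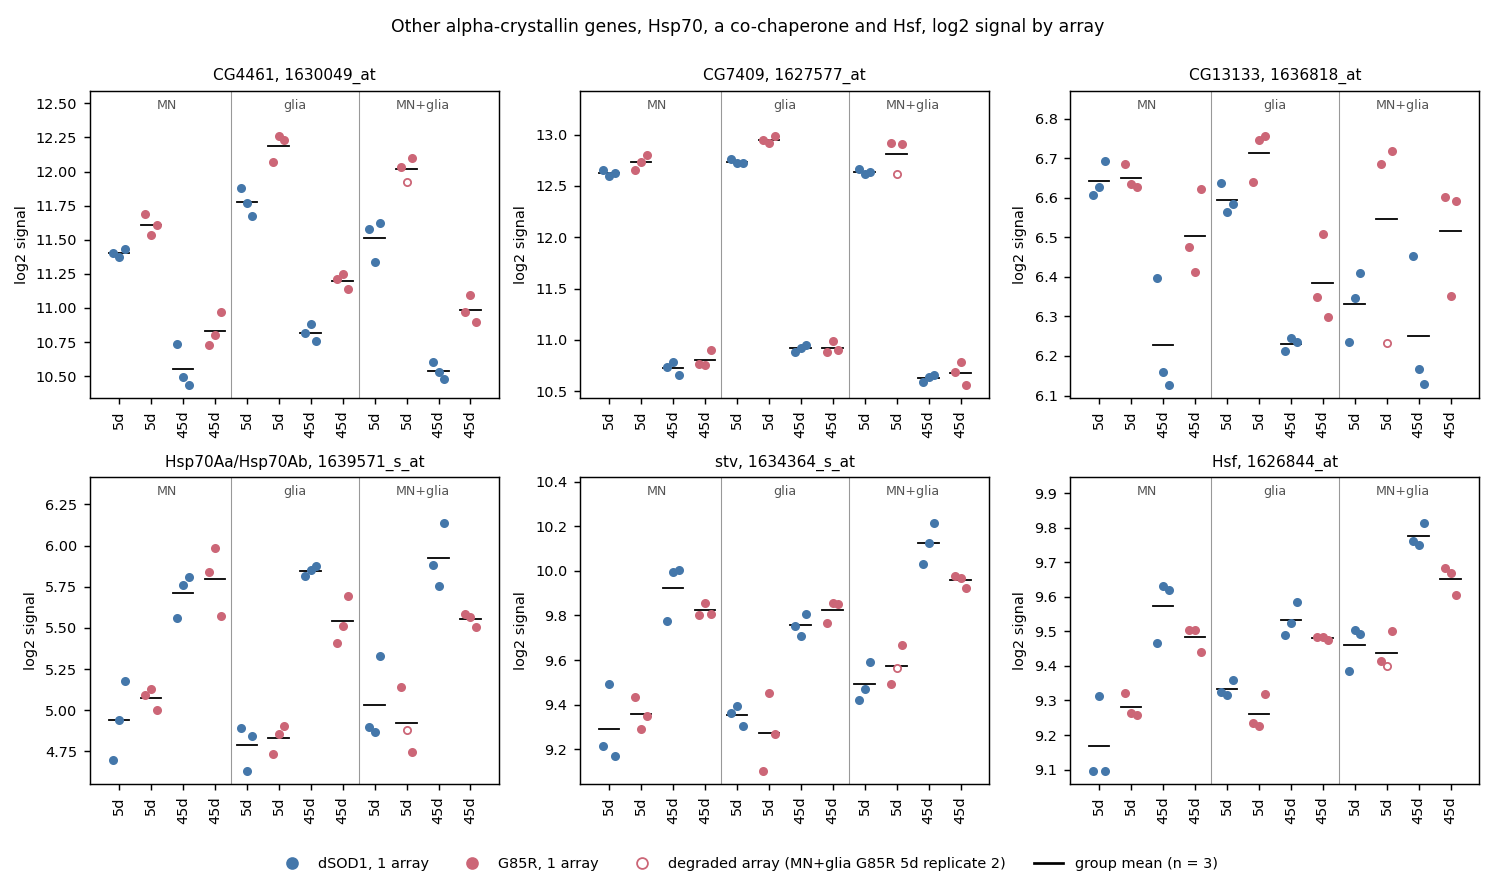
Log2 signal on 36 arrays of 6 other probe sets: the alpha-crystallin genes CG4461, CG7409 and CG13133, the shared Hsp70Aa and Hsp70Ab set, the co-chaperone gene stv and the transcription factor gene Hsf; points are arrays, bars group means (n = 3), and the open point is the degraded array. The axes do not start at 0. CG4461 and CG7409 are lower at 45d in all 6 pairs of ages, and the 3 lower panels are higher.

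Among 7 probe sets of Hsp70 family and heat-inducible chaperones, 0 or 1 passed in each G85R comparison, where 5.63% to 13.9% of all probe sets passed. Without the degraded array the count with MN at 45d was 2, for which the share of all probe sets was not counted. Hsp68, an inducible Hsp70, was higher in 3 of 6, by 0.32 with MN at 5d, 0.20 with MN at 45d and 0.21 with glia at 45d. DnaJ-1, an Hsp40 partner of Hsp70, was lower with MN+glia at 5d by 0.57 (adjusted p = 0.000424; 0.38, adjusted p = 0.00789, without the degraded array), and without that array it was also lower with MN at 45d (adjusted p = 0.0135). With MN+glia its G85R difference changed with age by 0.57 and fell short of that with MN at 5d by 0.59, and both calls were lost without the degraded array (adjusted p = 0.129 and 0.109). With age stv, which encodes a BAG-domain partner of Hsp70, rose in all 6 comparisons, by 0.38 to 0.63. The probe set shared by Hsp70Aa and Hsp70Ab also rose in all 6, by 0.63 to 1.06, at low levels (4.63 to 6.14 over arrays). That set carries more than 1 symbol and was chosen after its values were seen. The probe sets of Hsp70B genes passed as higher with age in 2, 0 and 2 of 6 comparisons. Their differences ran from -0.18 to 0.28, -0.11 to 0.02 and -0.01 to 0.48, in that order. Hsp68 passed with age in 0 of 6 (-0.13 to 0.14). Of the 7 probe sets 2 to 5 rose and 0 or 1 fell in each comparison of age. Of all probe sets 16.5% to 26.1% rose and 14.9% to 19.2% fell. DnaJ-1 rose with age in both glia groups and fell in MN+glia dSOD1.

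Constitutive chaperones and co-chaperones, 19 probe sets, had 0 to 4 calls in each G85R comparison, where 5.63% to 13.9% of all probe sets passed. Without the degraded array the 4 with MN+glia at 5d were 1 (6.51% of all probe sets), and the 2 with MN at 45d were 4. For the latter the share of all probe sets in that fit was not counted. The co-chaperone Stip1 was lower with MN+glia at 5d, by 0.41 (0.26, adjusted p = 0.00264, without the degraded array), Hsc70-2 was lower there by 0.27 but not without that array (adjusted p = 0.333), mrj, an Hsp40 relative, was higher with MN at 5d by 0.34, and Hsc70-1 was higher on 1 of 3 probe sets with glia at 45d by 0.29. Fkbp59, named after its values were seen, was lower with G85R in 3 of 6 comparisons: MN at 5d and 45d and glia at 45d. Its differences over the 6 ran from -0.22 to -0.10. With age 5 to 9 of the 19 rose and 5 fell in each comparison, beside 16.5% to 26.1% of all probe sets that rose and 14.9% to 19.2% that fell. Stip1 rose in 5 of 6 and Hsp110, an exchange factor of Hsp70, in 6 of 6, by up to 0.60 and 0.56. Hsc70-2 fell in all 6, by up to 0.92, and Hsc70-1 fell on 2 of its probe sets, by up to 1.69, but passed on the third in none.

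Regulators of heat shock genes, 13 probe sets, had 0 to 2 calls in each G85R comparison, beside the same shares of all probe sets. Trl, the GAGA factor that keeps heat shock promoters open, was lower with G85R in 3 of 6, by 0.33 with MN at 5d, 0.33 with MN+glia at 5d (0.25 without the degraded array) and 0.28 with MN at 45d. Jra, the fly Jun, was higher with MN+glia at 5d by 0.30, though not without the degraded array (adjusted p = 0.113). With age 3 to 7 of the 13 passed in each comparison, none of them lower, where 31.7% to 45.3% of all probe sets passed in either direction and 16.5% to 26.1% rose. The JNK phosphatase gene puc rose in 5 of 6 (differences of 0.29 or more in all 6), whereas a bsk rise of 0.78 in MN+glia G85R was 0.03 without the degraded array. Hsf itself, named after its values were seen, rose in all 6, by 0.20 to 0.41, and no G85R comparison of it passed.

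Markers of other tissues moved with age beside these changes. The 3 accessory gland markers were lower at 45d in all 6 comparisons, and their mean log2 signal ran from 12.29 to 12.75 on the 18 arrays at 5d and from 11.60 to 12.17 at 45d. Of the 3 testis markers Mst84Da and dj were lower in all 6 (means from 8.18 to 8.58 at 5d and 7.94 to 8.30 at 45d). Of the muscle markers measured, up was lower in 5 of 6, and Act88F was lower in 2 and higher in 1 (9.75 to 10.67 and 9.36 to 10.38). Of the glial markers moody was higher in 6 and repo in 4, and nrv2 was lower in 5 (9.0 to 9.54 and 9.19 to 9.67). Of the neuronal markers only nSyb passed, lower in 1 comparison (6.77 to 8.48 and 6.70 to 8.39). Their mean differed by driver, from 6.70 to 6.94 on glia arrays and from 7.49 to 8.48 on MN and MN+glia arrays. The fat body gene FASN1 was higher in 5 and Lsp2 in 2 (9.09 to 11.86 and 9.21 to 12.41), and of the yolk protein genes Yp1 was higher in 5, Yp3 in 3 and Yp2 in 1 (4.73 to 5.74 and 5.28 to 6.90). Beside the Hsp22 rise with G85R at 5d, Acp36DE was lower with glia and with MN+glia and FASN1 was higher with MN+glia, though not without the degraded array (adjusted p = 0.054). Beside the calls with MN at 45d, of Hsp22 1630487_s_at and Hsp26, the markers nrv2 (-0.37), Acp36DE (-0.59) and SP (-0.30) were lower with G85R and Mst84Da (0.27) was higher. Beside those with MN+glia at 45d, of Hsp22 1630487_s_at and l(2)efl 1635952_at, moody (-0.37), Lsp2 (-2.70), Acp36DE (-0.30) and Yp1 (-1.16) were lower. FASN1 was also higher with MN at 5d, beside the Hsp22 1630487_s_at call. The part of these shifts in the changes of the small heat shock proteins was not tested.

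Among themselves the member probe sets ranged from like to unlike in pattern. Over the 12 group means Pearson r was 0.95 between the bright l(2)efl probe sets and 0.76 between Hsp22 1630487_s_at and Hsp26, while r between Hsp27 and the l(2)efl set 1626416_a_at was -0.77. These points share arrays and normalization, and age separates the groups, so the values are descriptions. Neighbouring groups in the order of means mostly overlapped: of 11 neighbouring pairs 6 overlapped for Hsp22 1629061_s_at and 9 or 10 for each other probe set. Such overlaps were not counted over all fly probe sets. For Hsp22 1629061_s_at, glia dSOD1 45d stood above the next group without overlap, and MN+glia dSOD1 5d and glia dSOD1 5d each stood apart at the lower end.

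Patterns most like those of the members were sought among 2696 probe sets of other genes with 1 symbol whose group means had an SD of at least 0.3, by Pearson r over the 12 group means. For Hsp22 1629061_s_at they were the maltase gene Mal-B1 (r = 0.92), CG9547 (0.91) and CG11672 (0.90), and for 1630487_s_at CG15711 (0.92), ATPsynCF6L (0.92) and CG31115 (0.91). Hsp26 was closest to CG15125 (0.90), CG13884 (0.86) and ATPsynCF6L (0.86), and Hsp27 to polyph (0.94), CG15909 (0.93) and CG6209 (0.93). For l(2)efl they were CG9864 (0.97), CG6310 (0.97) and sut2 (0.96) with 1626416_a_at, CG6310 (0.95), CG5953 (0.94) and Dtd (0.94) with 1627242_at, and tut (0.89), CG34171 (0.87) and Ptth (0.86) with 1635952_at. All these values are the highest of a search over groups that age separates, so they are descriptions only.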

How the data were processed

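RNA of whole males was hybridized to 36 Affymetrix Drosophila Genome 2.0 arrays, in 12 groups of 3 taken from the sample labels. The deposited values are log2 signals per probe set, made by the authors by RMA (background correction, quantile normalization and probe set summary) in the Robin software. No genome build is given in the sources used here. Of 18952 probe sets, 183 controls were left out. Of the rest, 13647 carried 1 gene symbol, 402 several and 4720 none in the platform annotation, brought up to date by RefSeq. With R 4.3.3 and limma 3.58.1, 12 group means were fitted to all 36 arrays (24 residual and 5.77 prior degrees of freedom), and 21 comparisons were adjusted by Benjamini-Hochberg, each over 18769 probe sets, at 0.05. The fit was tested on simulated data.

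All member probe sets are named. Of each list up to 2 called genes per direction and kind of comparison are named, by size and among probe sets with 1 symbol. The members and lists were chosen with earlier results of these data known. Alternatives were a second quantile or a cyclic loess normalization, a filter on dim signals, weights per array, a trended prior, the replicate number as a block, fits on the arrays of 1 comparison, joint adjustment, 1 probe set per gene and omission of single arrays. The number of arrays limits the precision. The highest correlation between arrays was 0.9988, and no array was counted as a duplicate.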

Additional observations from a re-analysis of the deposited data

Results flagged for a closer look

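These results stand here because the G85R difference itself differed between ages or drivers, by the test of that difference. For Hsp22 probe set 1629061_s_at the G85R difference was smaller at 45d than at 5d, by -0.84 with glia (SE 0.19, adjusted p = 0.0108) and by -0.91 with MN+glia (SE 0.19, adjusted p = 0.00484), and at 5d it was larger with MN+glia than with MN by 1.20 (SE 0.19, adjusted p = 0.000316). Without the degraded array the change with age with MN+glia was -0.84 (adjusted p = 0.0199) and the excess over MN was 1.13 (adjusted p = 0.0018). In fits on the arrays of each comparison alone neither passed (adjusted p = 0.0526 and 0.0909). The glia and MN+glia dSOD1 controls at 5d held the lowest group means of this probe set (9.25 and 8.94), below that of MN dSOD1 5d (9.71).

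For Hsp22 probe set 1630487_s_at the G85R difference at 45d was smaller with glia than with MN by -0.52 (SE 0.10, adjusted p = 0.00155). For l(2)efl probe set 1635952_at with MN+glia it was larger at 45d than at 5d by 0.74 (SE 0.18, adjusted p = 0.0203), a change that the brighter probe sets of the gene did not show. For Hsp26 with MN+glia it was larger at 45d by 0.37 (SE 0.10, adjusted p = 0.0308), which was lost without the degraded array (0.26, adjusted p = 0.134).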

How the results depend on the processing

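Of 46 called differences 37 were called under every alternative fit that tested the probe set, and 33 also with each of 36 arrays left out. No called difference changed sign. Of those not called, 20 were called under at least 1 alternative and 31 changed sign under 1 or more. For G85R against dSOD1, array weights gave 13 calls (12 higher and 1 lower) in place of 7, and 1 probe set per gene gave 3. For age, 1 probe set per gene gave 18 in place of 33. For the change with age, the arrays of 1 comparison alone gave 2 in place of 4. For differences between drivers, array weights gave 6 in place of 2, the arrays of 1 comparison alone 1, and 1 probe set per gene 1. Fewer probe sets were tested with 1 per gene (4 of 7 members), and fewer arrays in fits of 1 comparison. For array weights the cause was not tested. The share of all probe sets called was not counted for these alternatives.

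Leaving out each array in turn gave 5 to 9 calls for G85R against dSOD1, 31 to 35 for age, 2 to 4 for the change with age and 2 to 5 between drivers. The 2 came without MN+glia dSOD1 5d replicate 3 or MN+glia dSOD1 45d replicate 1, and the 5 without MN+glia G85R 5d replicate 1. Same-numbered arrays showed no steady likeness once group means were taken off. Their correlations ran from -0.302 to 0.396, and in 0 of 12 comparisons did every pair exceed 0.1. Arrays of different numbers were not set beside them, so this cannot exclude pairing. With the replicate block, 8, 34, 4 and 2 calls were made in the 4 kinds of comparison. The lowest signals, of l(2)efl 1635952_at and the Hsp70 sets, lie where array background weighs most.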
